A study of Mus musculus with 8 samples.

Results

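The genes described here encode 9 proteins of elastic fibres and of the fibrillin microfibrils that clothe them: Eln, Fbn1, Fbln1, Fbln2, Fbln5, Emilin1, Mfap4, Mfap5 and Ltbp2. They were taken by name, with earlier results of these data known. Each was found as 1 locus that holds no other gene among the 35299 loci of the deposited table. The gene lists below were chosen likewise, so counts set beside the share of all loci are descriptions and not tests. RNA came from the hearts of 8 C57BL/6J mice 12 weeks old, 4 with an infarct (MI, myocardial infarction, in which muscle dies when its coronary artery is blocked) and 4 with a sham operation (Sham), described as biological replicates. The tissue was the border zone, the muscle next to the infarct or the matching place in sham animals, taken 2 weeks after surgery, and no allele or drug is named for either group. Polyadenylated RNA was sequenced in paired reads of 100 bases on an Illumina HiSeq2000.

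An elastic fibre has a core of cross-linked elastin, which stretches and recoils, inside a mantle of fibrillin microfibrils. Microfibrils also hold latent TGF-beta through relatives of fibrillin, and fibulins and EMILINs tie elastin, microfibrils and cells together. In the heart these fibres lie in vessel walls, valves, the outer and inner linings and the connective tissue between muscle cells, where fibroblasts and smooth muscle cells are their main makers.

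Promoter windows from RefSeq (GRCm38.p6) matched 6 of the 9 genes by symbol, with 8 start sites among them. Windows were cut at the first base of the gene, and only those of Ltbp2, Fbln5 and Fbln1 kept bases to show. Shown are windows of Ltbp2, the gene with the largest rise below, of Fbln1, with the smallest, and of Fbln5, with a rise in between. Each is printed 5′ to 3′ on the strand of the gene and stops before the first base of the gene in GENCODE M21, and capitals mark GGGCGG, its reverse complement and CACGTG. The Ltbp2 window is chr12:84876533-84876741 on the minus strand, the Fbln5 window chr12:101819120-101819369 on the minus strand and the Fbln1 window chr15:85205699-85205948 on the plus strand.
Ltbp2: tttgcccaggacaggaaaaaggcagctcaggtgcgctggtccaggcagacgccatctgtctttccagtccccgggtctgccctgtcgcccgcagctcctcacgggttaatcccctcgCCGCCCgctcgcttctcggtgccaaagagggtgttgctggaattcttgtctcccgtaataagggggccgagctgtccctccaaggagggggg
Fbln5: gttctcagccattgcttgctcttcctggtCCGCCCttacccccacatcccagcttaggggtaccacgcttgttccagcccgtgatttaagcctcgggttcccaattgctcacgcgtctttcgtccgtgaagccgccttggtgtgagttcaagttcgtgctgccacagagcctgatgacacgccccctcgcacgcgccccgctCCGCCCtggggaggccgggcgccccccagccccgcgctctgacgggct
Fbln1: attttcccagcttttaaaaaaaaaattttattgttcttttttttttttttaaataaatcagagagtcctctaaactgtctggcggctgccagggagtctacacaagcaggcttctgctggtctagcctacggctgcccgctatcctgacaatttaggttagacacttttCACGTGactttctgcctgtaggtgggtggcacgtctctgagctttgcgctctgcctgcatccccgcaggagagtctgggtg
A set of 6 short words was searched on both strands in the 250 bases before each start, and no match overlapped another in these genes. GGGCGG was found in windows of Fbn1, Fbln1, Fbln2, Fbln5 and Ltbp2, 5 of the 8 windows, and in 32.7% of all 32851 windows. CACGTG was found in both windows of Fbln1, at 1 shared site, and in 6.02% of all windows. The 4 other words had no match in the 8 windows. They were TATAAA, present in 12.4% of all windows, GGAATG, in 12.6%, TGANTCA, in 6.75%, and GTCTAGAC, in 0.167%. The GGGCGG matches of Fbn1 and Fbln2, of the other window of Fbln1 and 1 of the 2 of Ltbp2 lie in bases not shown. These matches describe letters only.

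The libraries held 165 to 190.2 M reads in loci in MI and 108 to 161 M reads in Sham, so every MI library was deeper. The library of MI replicate 2 stood apart from its group. It scored 34.8 on the leading principal component (61.9% of the variance), where MI replicates 1, 3 and 4 scored 62.4 to 63.2 and Sham libraries -65.2 to -42.6. Group labels come from the sample titles and the treatment field. For MI samples the source field reads Sham, some descriptions conflict, and the Sham titles carry a remark on reanalysis that MI titles lack, so any difference in the origin of the libraries and infarction cannot be told apart. The mitochondrial genome (chrM) took 23.8% to 26.1% of reads in MI and 29.2% to 32.3% in Sham. Levels are the deposited normalised reads per locus, given as mean ± SD with n = 4 animals per group. Log2 differences are MI minus Sham on the scale log2(value + 1) with the moderated standard error, from limma over the 19186 loci that averaged 10 or more, and adjusted p is Benjamini-Hochberg over all of these.

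All 9 genes rose in MI, to between 2.06 and 29.6 times the Sham mean. In every one the lowest MI library lay above the highest Sham library. Among all tested loci, 40.9% were called (limma adjusted p under 0.05), with 20.8% of tested loci higher in MI, and 9.04% were called and at least 2-fold higher, a size that all 9 genes reached. The groups parted in 39.6% of all tested loci, and with MI higher in 19.7%. The median log2 difference of the 9 genes was 2.42, beside -0.02 for all tested loci. Together they took 2446 ± 597 reads per M reads outside chrM in MI and 447 ± 56.3 in Sham (5.47 times). Each of the 9 genes already parted with MI higher, so a test of their sum would add nothing and none is given. In bulk tissue, more cells of a type and more RNA per cell cannot be told apart.

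**Figure D1:**
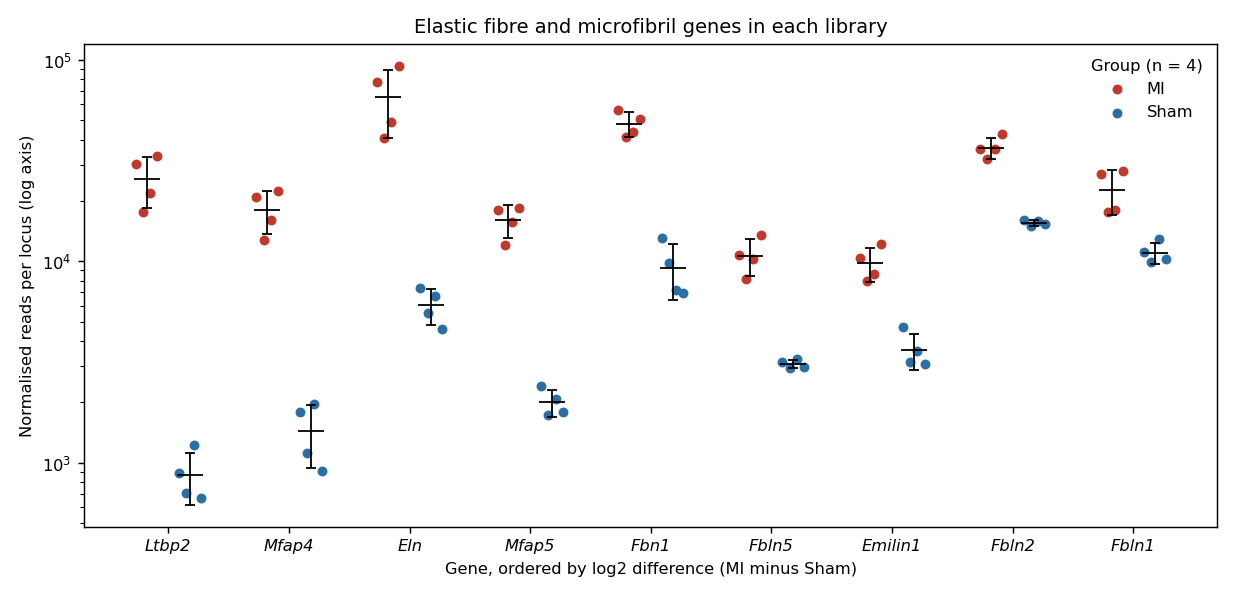
Normalised reads per locus (log axis) of the 9 genes in each library, MI (red) left of Sham (blue), with points for the 4 libraries and black bars for mean ± SD. In each gene all 4 MI points lie above all 4 Sham points, and the gap narrows from Ltbp2 at the left to Fbln1 at the right.

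Eln encodes tropoelastin, the soluble unit that is cross-linked into the elastic core (chromosome 5, 135178466 to 135223506, minus strand, mm9, 37 exons). It stood at 77129, 40966, 49245 and 93175 normalised reads in MI replicates 1 to 4, against 7378, 5519, 6739 and 4602 in Sham replicates 1 to 4. Every MI library was above every Sham library, and within MI replicates 1 and 4 were high and replicates 2 and 3 low. Eln averaged 65129 ± 24268 in MI and 6059.6 ± 1241 in Sham (10.7 times; log2 difference 3.37 ± 0.24 SE, limma adjusted p = 7.53e-06). Its rise ranked 138th among all 19186 tested loci.

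Fbn1 encodes fibrillin-1, the large glycoprotein that forms the backbone of microfibrils (chromosome 2, 125126330 to 125333729, minus strand, mm9, 66 exons). It had 56445, 41525, 43847 and 50726 normalised reads in MI replicates 1 to 4, against 13062, 9823, 7212 and 6958 in Sham replicates 1 to 4. The MI libraries were close to each other and all above Sham, while Sham replicate 1 was well above Sham replicates 3 and 4. Fbn1 averaged 48136 ± 6779 in MI and 9264 ± 2844 in Sham (5.20 times; log2 difference 2.42 ± 0.19 SE, limma adjusted p = 1.02e-05).

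The microfibril-associated genes rose further. Mfap5 encodes a small glycoprotein, MAGP-2, that binds fibrillin (chromosome 6, 122463163 to 122481684, plus strand, mm9). It had 17963, 12027, 15638 and 18392 normalised reads in MI replicates 1 to 4, against 2398, 1719.6, 2077 and 1774 in Sham replicates 1 to 4. The groups did not overlap, and MI replicate 2 was the low one of its group. Mfap5 averaged 16005 ± 2915 in MI and 1992 ± 313 in Sham (8.03 times; log2 difference 3.00 ± 0.15 SE, limma adjusted p = 8.95e-07). Mfap4, a fibrinogen-related protein that binds elastic fibres and collagen (chromosome 11, 61298946 to 61302206, plus strand, mm9), had 20864, 12745, 15973 and 22213 normalised reads in MI replicates 1 to 4, against 1775, 1122, 1952 and 909.7 in Sham replicates 1 to 4. Its Sham libraries spread more than those of any other member, with a coefficient of variation of 34.9%. Mfap4 averaged 17949 ± 4385 in MI and 1439.6 ± 502 in Sham (12.5 times; log2 difference 3.67 ± 0.25 SE, limma adjusted p = 5.43e-06). Its last 99 bases overlap the Mapk7 locus on the other strand, at 1896 normalised reads in MI and 1125 in Sham, and whether the libraries keep strand is not given in the sources used here.

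Ltbp2 had the largest rise of the 9. It encodes a fibrillin-like protein that binds microfibrils and, unlike its relatives, does not bind latent TGF-beta (chromosome 12, 86116261 to 86219035, minus strand, mm9). It stood at 30432, 17539, 21692 and 33221 normalised reads in MI replicates 1 to 4, against 887, 703, 1218 and 667 in Sham replicates 1 to 4. As a ratio of its lowest MI to its highest Sham library, the gap was wider than that of any other member. Ltbp2 averaged 25721 ± 7339.9 in MI and 869 ± 252 in Sham (29.6 times; log2 difference 4.88 ± 0.23 SE, limma adjusted p = 6.75e-07), and its rise ranked 25th of all tested loci. Its Sham level rests on 2854 reads over the 4 libraries, the fewest of any member, and its MI level on 131622.

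The fibulins, which bridge elastin, microfibrils and cells, rose less than Ltbp2, Mfap4, Mfap5 and Eln. Fbln5, a fibulin that guides tropoelastin onto microfibrils and carries a cell-binding motif (chromosome 12, 102984775 to 103057265, minus strand, mm9), had 10785, 8177, 10209 and 13498 normalised reads in MI replicates 1 to 4, against 3148, 2963, 3250.2 and 2978 in Sham replicates 1 to 4. Sham libraries were nearly equal, with a coefficient of variation of 4.49%. Fbln5 averaged 10667 ± 2193 in MI and 3085 ± 138 in Sham (3.46 times; log2 difference 1.77 ± 0.13 SE, limma adjusted p = 7.50e-06). Fbln2, found in basement membranes and elastic fibres (chromosome 6, 91162758 to 91222534, plus strand, mm9), had 35850.5, 31999, 36004 and 42635 normalised reads in MI replicates 1 to 4, against 16063, 14924, 15771 and 15300.1 in Sham replicates 1 to 4. Fbln2 averaged 36622 ± 4416 in MI and 15515 ± 504 in Sham (2.36 times; log2 difference 1.23 ± 0.09 SE, limma adjusted p = 6.50e-06), and its coefficient of variation was the smallest of the members in both groups, at 12.1% in MI and 3.25% in Sham. Fbln1, which binds fibronectin and elastin (chromosome 15, 85036441 to 85116947, plus strand, mm9), had 27124, 17467, 17859 and 28120.0 normalised reads in MI replicates 1 to 4, against 11109.6, 9856, 12826 and 10222 in Sham replicates 1 to 4. The MI values fell into a high pair, replicates 1 and 4, and a low pair, replicates 2 and 3, both above Sham. Fbln1 averaged 22642 ± 5767 in MI and 11003 ± 1324 in Sham (2.06 times; log2 difference 1.01 ± 0.16 SE, limma adjusted p = 7.53e-04), and without MI replicate 4 the log2 difference was 0.90. The splice forms of Fbln1 that end in different last exons share 1 locus and were not separated.

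Emilin1 encodes a glycoprotein at the border of elastin and microfibrils that also restrains the maturation of TGF-beta (chromosome 5, 31216159 to 31223646, plus strand, mm9). It had 10333, 7966, 8598 and 12127 normalised reads in MI replicates 1 to 4, against 4697, 3158, 3567 and 3069.8 in Sham replicates 1 to 4. Sham replicate 1 was the high one of its group and still below every MI library. Emilin1 averaged 9756 ± 1871 in MI and 3623 ± 748 in Sham (2.69 times; log2 difference 1.43 ± 0.16 SE, limma adjusted p = 7.67e-05).

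The rises were unequal, as ratios within a library show without any scaling between libraries. For each of the 36 pairs of genes the log2 ratio was compared between MI and Sham, and in 30 pairs (83.3% of pairs) the groups did not overlap (exact 2-sided permutation p = 0.0286, adjusted over 36 pairs p = 0.0343). Pairs share genes and so are not independent. The share of parted ratios among pairs of other loci was not computed, so whether 30 of 36 is unusual is not known. Ltbp2 rose more than each of the other 8, with changes of the log2 ratio from 1.21 against Mfap4 to 3.87 against Fbln1. The ratio of Ltbp2 to Fbn1, the microfibril backbone, changed by 2.47 (log2 ratio, not corrected for length, -0.94 ± 0.26 in MI and -3.41 ± 0.60 in Sham). Next came Mfap4, Eln and Mfap5. Mfap4 rose more than Mfap5 (change 0.68), while the ratios of Mfap4 to Eln (change 0.30, exact permutation p = 0.143, adjusted p = 0.151) and of Eln to Mfap5 (change 0.37, exact permutation p = 0.0857, adjusted p = 0.0935) overlapped between the groups.

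All 3 rose more than Fbn1, Eln by 0.96, so on average elastin mRNA rose more than the mRNA of its main scaffold in these libraries. The groups parted narrowly for the log2 ratio of Eln to Fbn1, at -0.02 in MI replicate 2 and -0.10 in Sham replicate 3. For Mfap5 to Fbn1 the same libraries nearly touched, at -1.788 and -1.795. Fbn1 rose more than Emilin1, Fbln2 and Fbln1 (changes 0.98, 1.18 and 1.40), and its ratio to Fbln5 overlapped (change 0.65, exact permutation p = 0.0571, adjusted p = 0.0643). Fbln5 rose more than Emilin1, Fbln2 and Fbln1 (changes 0.34, 0.54 and 0.76). Among Emilin1, Fbln2 and Fbln1 all 3 ratios overlapped, with changes of 0.20 to 0.42 and adjusted p from 0.0643 to 0.2. A p that misses the threshold does not show that genes rose alike.

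**Figure D2:**
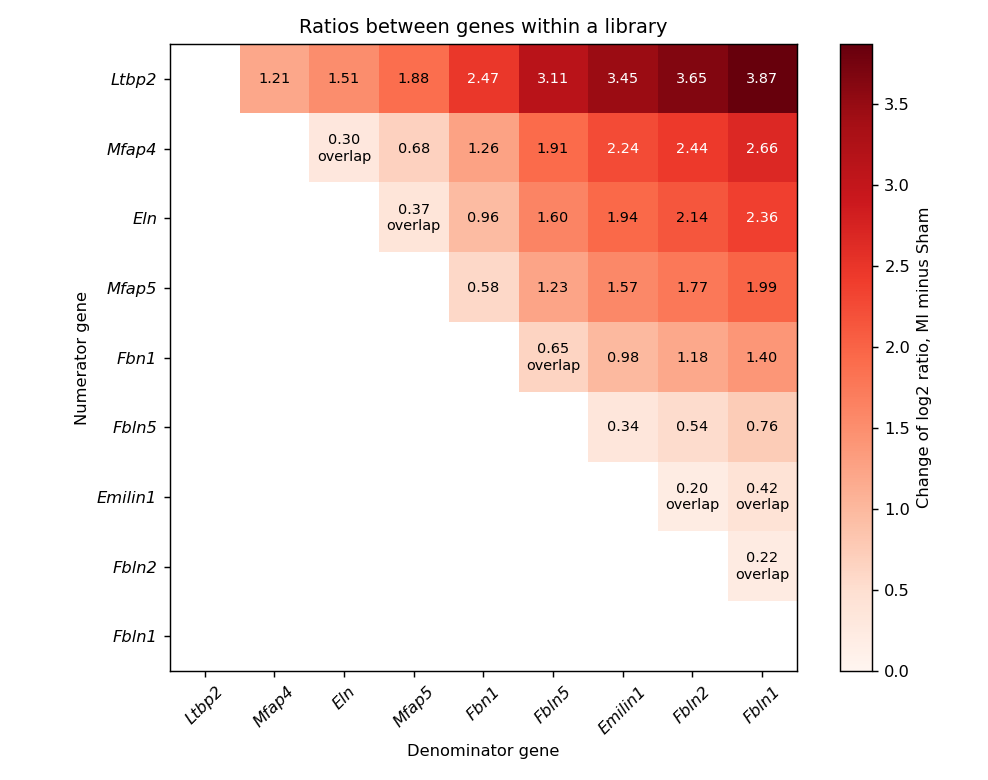
Change of the log2 ratio of 2 genes within a library, MI minus Sham (mean of 4 libraries each), with the numerator gene down the side and the denominator gene along the bottom, both ordered by rise. The word overlap marks the 6 pairs whose MI and Sham ratios overlapped, and the Ltbp2 line runs from 1.21 to 3.87.

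The order of the levels per length also differed between the groups. Per 1000 bases of exon in the deposited annotation, Eln was the most abundant in MI (15645 ± 5829 normalised reads per 1000 bases), followed by Mfap4 (11107 ± 2713), Fbln2 (8042 ± 969.7), Fbln1 (5645 ± 1438), Mfap5 (3705 ± 675), Fbn1 (3399 ± 479), Emilin1 (2328 ± 446), Fbln5 (1598 ± 329) and Ltbp2 (1459 ± 416). In MI the ranges of neighbours overlapped except between Fbln2 and Fbln1, Fbln1 and Mfap5, and Fbn1 and Emilin1. In Sham Fbln2 led (3407 ± 111), before Fbln1 (2743 ± 330.1), Eln (1456 ± 298), Mfap4 (891 ± 311), Emilin1 (864 ± 179), Fbn1 (654 ± 201), Fbln5 (462 ± 20.7), Mfap5 (461 ± 72.5) and Ltbp2 (49.3 ± 14.3). In Sham the ranges of Eln to Fbn1 overlapped from neighbour to neighbour, as did those of Fbln5 and Mfap5. Within single libraries each gene lay above the next in at least 3 of 4, with 1 exception. In Sham Mfap4 lay above Emilin1 in only 1 of 4 libraries, against the order of their means.

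As a share of the summed level per 1000 bases of the 9 genes, Eln made up 28.9 ± 3.89% in MI and 13.1 ± 1.28% in Sham. Mfap4 made up 21.0 ± 0.720% in MI and 7.95 ± 1.97% in Sham. Fbln2 made up 15.6 ± 2.44% in MI and 31.3 ± 2.83% in Sham, and Fbln1 10.7 ± 0.705% in MI and 25.0 ± 1.98% in Sham. By this length Eln and Mfap4 had the largest shares in MI, and Fbln2 and Fbln1 in Sham. Fbn1 kept overlapping shares, at 6.57 ± 0.913% in MI and 5.93 ± 1.51% in Sham. The length of the longest UCSC transcript was also used in place of all exons, a choice made with the data in view. Eln then led in MI and Ltbp2 was last in Sham as before, and some of the other places moved. Ltbp2 was then 7th in MI, where it had been 9th, and Mfap4 was 7th in Sham, where it had been 4th. The shares of Mfap5 were then 16.4 ± 1.39% in MI and 9.999 ± 0.571% in Sham, in place of 7.09 ± 0.661% in MI and 4.19 ± 0.251% in Sham, and that of Mfap4 in MI was then 16.3 ± 0.480%. The shares of Ltbp2 were 5.42 ± 0.298% in MI and 0.906 ± 0.187% in Sham, in place of 2.73 ± 0.140% in MI and 0.444 ± 0.0917% in Sham, and Fbln1 came before Fbln2 in Sham.

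Within MI the genes moved up and down together from library to library. MI replicate 2 was the lowest MI library for all 9 genes, as it was for 60.1% of all loci called higher. MI replicate 4 was the highest for 8 genes, as for 36.1% of loci called higher, and for Fbn1 it was replicate 1. On the log2 scale the 9 genes lay on average 0.19, -0.37, -0.15 and 0.33 from their MI means in MI replicates 1 to 4. In Sham these deviations were 0.23, -0.13, 0.14 and -0.25, with all 9 genes above their mean in replicate 1 and all below it in replicate 4. The lowest Sham library was replicate 4 for 5 genes, as for 43.6% of loci called higher, and replicate 2 for the other 4, as for 20.3%. Fbn1 went its own way in Sham replicate 3, at -0.31, where Ltbp2 and Mfap4 were at 0.53 and 0.51. Without MI replicate 2 all 9 genes were called higher, with log2 differences from 1.13 to 5.05.

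**Figure D3:**
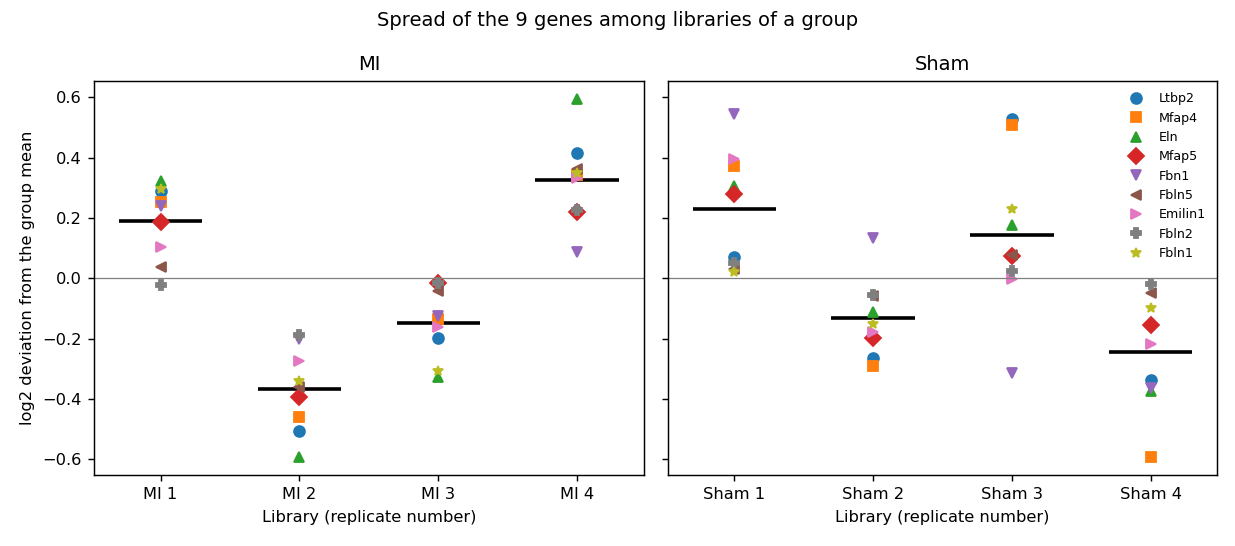
Deviation of each of the 9 genes from its own group mean (log2) in the 4 MI libraries (left) and the 4 Sham libraries (right), with black bars for the mean over the genes. In MI replicate 2 all genes lie below 0 and in MI replicate 4 all lie above it.

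Among all named loci with a mean of at least 50, the 5 whose levels over the 8 libraries followed the mean profile of the 9 genes most closely were Loxl3, Ssc5d, Mmp2, Col16a1 and Col5a2, with Pearson r from 0.998 to 0.999. The 8 libraries form the 2 groups, so this r holds the difference between groups and is a description with no test. Loxl3, a lysyl oxidase relative, averaged 4913 ± 1186 in MI and 714 ± 139 in Sham (log2 difference 2.77 ± 0.18). Col5a2, a chain of a minor fibrillar collagen, averaged 40521 ± 9146 in MI and 4767 ± 910.0 in Sham (log2 difference 3.08), and Ssc5d, a secreted scavenger receptor cysteine-rich protein, 6044 ± 1166 in MI and 1469.6 ± 234 in Sham.

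The near relatives of the 9 genes did not all rise. Of 14 family and scaffold genes, all tested, 7 rose, 3 fell and 4 were not called (median log2 difference 0.43). In all tested loci 20.8% were called higher and 20.1% lower. Mfap2, which encodes MAGP-1, the sister of MAGP-2, had 1104, 642, 965 and 1207 normalised reads in MI replicates 1 to 4, against 309, 224, 224 and 209.7 in Sham replicates 1 to 4 (log2 difference 1.99 ± 0.20). Fbln7, a fibulin of low level, averaged 263 ± 71.9 in MI and 60.4 ± 25.5 in Sham (2.16 ± 0.31), and Emilin3, at a still lower level, 31.3 ± 10.4 in MI and 6.07 ± 2.07 in Sham (2.17 ± 0.34). The 3 that fell were Efemp1, Emilin2 and Ltbp1, singled out after their values were seen. Efemp1, the fibulin known as fibulin-3, stood at 251, 287, 737 and 280.1 normalised reads in MI replicates 1 to 4, against 809, 905, 999 and 826 in Sham replicates 1 to 4 (log2 difference -1.33 ± 0.29 SE, limma adjusted p = 0.00416). All MI libraries were below all Sham libraries, and MI replicate 3 was far above the other MI libraries. Emilin2 averaged 6385 ± 688 in MI and 8206 ± 1091 in Sham (log2 difference -0.36 ± 0.11 SE, limma adjusted p = 0.0269) and Ltbp1, which tethers latent TGF-beta to the matrix, 8255 ± 599 in MI and 10461 ± 1268 in Sham (log2 difference -0.34 ± 0.09 SE, limma adjusted p = 0.0153).

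Those falls depend in part on scaling. With scaling to the library total, which puts the median log2 difference of all loci at 0.29, Emilin2 stood at -0.05 and Ltbp1 at -0.03, neither called, while Efemp1 stood at -1.03 and was called. With the total outside chrM the median was at 0.17, Emilin2 stood at -0.17 and Ltbp1 at -0.15, also not called. The call of Emilin2 ended as well without MI replicate 1 (-0.28) and without Sham replicate 1, 2 or 4 (-0.32, -0.34 and -0.32). Over all loci, total scaling gave 8571 higher and 1493 lower calls, and the total outside chrM 6384 and 2141, beside 3999 and 3855 with the deposited scaling. All 9 elastic fibre genes were called higher under every scaling.

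Members and relatives were set side by side by their ratio within a library, in 16 pairs chosen after the data were seen. In 11 pairs the groups did not overlap (exact 2-sided permutation p = 0.0286, adjusted over 16 pairs p = 0.0416). The member rose more in 9 of them and less in 2. Efemp1 and Ltbp1 fell with groups apart, so the ratios of the fibulin members to Efemp1 and of Ltbp2 to Ltbp1 had to part. The share of parted ratios among pairs of other loci was not computed, so the count is a description. Ltbp2 rose more than Ltbp1, Ltbp3 and Ltbp4, with changes of the log2 ratio of 5.22, 3.55 and 4.19. Ltbp3 and Ltbp4, which bind latent TGF-beta, had log2 differences of 1.33 ± 0.10 and 0.69 ± 0.11. Mfap5 rose more than Mfap2 (change 1.01), and Emilin1 more than Emilin2 (change 1.79). The 3 fibulin members parted from Efemp1 by 2.35 to 3.10. Fbln5 also rose more than Efemp2, a fibulin needed for elastin cross-linking (change 0.58), whereas Fbln1 and Fbln2 rose less than Fbln7 (changes -1.15 and -0.93). In the other 5 pairs the ratios overlapped between the groups. They were those of Fbn1 to Fbn2, the fibrillin best known from development (change 0.56, exact permutation p = 0.114, adjusted p = 0.141), and of Emilin1 to Emilin3, which ran the other way (change -0.74, with the same p values). The ratios of Fbln1 and Fbln2 to Efemp2 had differences of -0.18 and 0.04, and that of Fbln5 to Fbln7 one of -0.40 (exact permutation, adjusted p from 0.327 to 0.714).

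**Figure D4:**
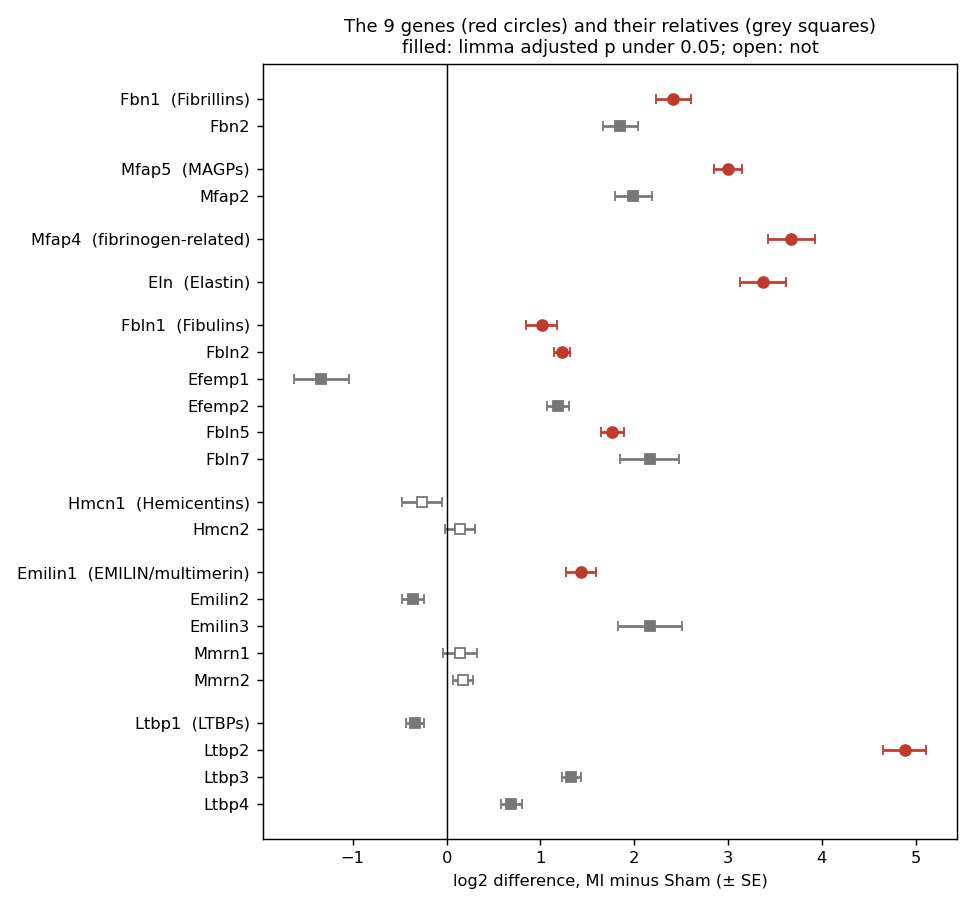
Log2 difference, MI minus Sham, with its standard error for the 9 genes (red circles) and 14 relatives (grey squares), grouped by family. Filled symbols passed limma at an adjusted p under 0.05 and open ones did not, and Ltbp2 at 4.88 and Efemp1 at -1.33 are the ends of the range.

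Of 11 genes that cross-link and assemble elastic fibres and have a locus of their own, 9 rose, 1 fell and 1 was not called, beside 20.8% higher and 20.1% lower among all tested loci (median log2 difference 1.63). The one not called was Atp7a, a copper pump (0.27 ± 0.16). Lox, the lysyl oxidase that oxidises lysines of tropoelastin and collagen, had 16319, 8956, 11498 and 15889 normalised reads in MI replicates 1 to 4, against 728, 586, 833 and 697 in Sham replicates 1 to 4. Its groups were far apart (log2 difference 4.18 ± 0.18, adjusted p = 5.36e-07, limma). Loxl3 had 5485, 3744, 4126 and 6295 normalised reads in MI replicates 1 to 4, against 846, 634, 817 and 559.7 in Sham replicates 1 to 4. Adamtsl2, a secreted protein that binds fibrillin, averaged 13134 ± 2815 in MI and 2002 ± 346 in Sham (2.70 ± 0.16). Loxl1, the lysyl oxidase relative most closely tied to elastin, had a log2 difference of 2.25 ± 0.19 and was also singled out afterwards. The member that fell was Adamtsl4, another fibrillin-binding protein, singled out after its value was seen (log2 difference -0.35 ± 0.08 SE, limma adjusted p = 0.00719), and with total scaling it stood at -0.05, or -0.16 without chrM, and was not called.

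Among the receptors through which cells hold these fibres, 6 of 8 rose, 1 fell and 1 was not called, beside the same 20.8% higher and 20.1% lower among all tested loci (median 0.72). The integrin subunits Itgb8 (1.48 ± 0.15), Itgb3 (1.37 ± 0.12) and Itgb5 (0.87 ± 0.11) rose most. Itgb3 averaged 949 ± 82.5 in MI and 369 ± 52.2 in Sham and Itgb5 27839 ± 4573 in MI and 15136 ± 733 in Sham. Itgb6, whose integrin activates latent TGF-beta, fell (log2 difference -0.70 ± 0.17 SE, limma adjusted p = 0.00693; singled out after its value was seen), although its groups overlapped, and with total scaling it stood at -0.40 and was not called, while with the total outside chrM it stood at -0.51 and was called. All 5 genes of latent TGF-beta rose, beside 20.8% of all tested loci, and in 3 of the 5 the groups did not overlap (median 0.65), led by the ligands Tgfb2 (1.91 ± 0.18) and Tgfb3 (1.48 ± 0.14). Nrros, which displays latent TGF-beta on myeloid cells, followed at 0.65 ± 0.15, with groups that overlapped. The groups of Lrrc32, which displays latent TGF-beta on other cells, overlapped too (log2 difference 0.56 ± 0.18 SE, limma adjusted p = 0.0311; singled out after its value was seen). The count called was 4 without MI replicate 1, without MI replicate 4, without Sham replicate 2 and without Sham replicate 4.

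Of the proteases that cut elastin, 7 of the 9 listed were alone in their locus and 5 passed the minimum level. Of these 5, 4 rose, beside 20.8% of all tested loci, and 1 was not called (median 1.87). In 3 of the 5 the groups did not overlap. Those of Mmp9, called higher and singled out after its values were seen, overlapped, at 120 in MI replicate 3 and 121 in Sham replicate 4. Mmp12, the macrophage elastase, had 4204, 968, 981 and 1503 normalised reads in MI replicates 1 to 4, against 59.7, 102, 54.6 and 64.6 in Sham replicates 1 to 4 (log2 difference 4.50 ± 0.42), with MI replicate 1 far above the rest. Mmp2, a gelatinase of fibroblasts, averaged 31930.3 ± 6204 in MI and 7973 ± 993 in Sham (1.99 ± 0.14), and Ctss, cathepsin S, 5941 ± 1343 in MI and 1615 ± 316 in Sham (1.87 ± 0.17). Elane, the neutrophil elastase, and Mmp7 had means under 10 and were not tested. In no MI or Sham library did they exceed 1.65 normalised reads for Elane or 1.19 for Mmp7, within the 1.99 to 4.73 that a count of 0 allows (3 reads per library).

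Markers of the cells that make elastic fibres moved too. Among all tested loci 20.8% were higher and 20.1% lower. All 8 fibroblast markers rose (median 1.42), with summed levels of 472943 to 735712 normalised reads in MI and 63256 to 118161 in Sham. Most of that sum was collagen: Col1a1, Col1a2 and Col3a1 averaged 138516, 153865 and 264453 in MI, and Lum, the highest of the others, 19532. The mean log2 level of the 5 markers without collagens differed by 0.87. Markers of smooth muscle, the other main source, overlapped in their sums, 43812 to 55390.0 in MI and 43184 to 53026 in Sham, with 3 of 6 higher, 1 lower and 2 not called (median 0.22). Endothelial markers (none of 5 called by limma, 1 with an unadjusted p under 0.05, median 0.14) summed to 100625 to 123219 in MI and 93101 to 127539 in Sham. On rebuilt reads edgeR, DESeq2 and voom called none of them higher. Total scaling called 3, the total outside chrM 2, TMM 1 and upper-quartile scaling 1, and the deposited scaling without Sham replicate 1 called 2. Macrophage markers (3 of 4 higher, 1 not called, median 0.43) summed to 16967 to 20713 in MI and 12769.5 to 15791 in Sham. Markers of heart muscle, which show the labelled tissue, summed to 3863844 to 4920537 in MI and 6454953 to 7347896 in Sham, with 5 of 6 lower. Markers of the epicardium and mesothelium rose in 4 of 5, with sums of 1097 to 1387 in 3 MI libraries, 5600 in MI replicate 3 and 416 to 1364 in Sham. That count was 3 without MI replicate 3, 1 without Sham replicate 4, 1 with DESeq2 and 0 with voom. In MI replicate 3 none of the 9 genes was the highest of its group. No analysed marker was at 0 in any library. In Sham replicate 4, however, the epicardial and mesothelial markers Upk3b and Lrrn4 stood at 1.58 and 3.15 normalised reads. Both lie within the 4.73 that a count of 0 allows in that library. The part of these cell types in the rise of the 9 genes was not tested.

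Set against the mean log2 level of the 8 fibroblast markers in the same library, which itself differed by 1.70, 8 of the 9 genes (88.9%) had groups that did not overlap (exact 2-sided permutation p = 0.0286, adjusted over 9 genes p = 0.0321). The marker mean was 14.5 ± 0.26 in MI and 12.8 ± 0.22 in Sham, so a gene that did not change would also tend to part. The share of all tested loci that part on this measure was not computed, so whether the count is particular to these genes is not known. Relative to these markers, Ltbp2, Mfap4, Eln, Mfap5 and Fbn1 were higher in MI, by 3.18, 1.97, 1.67, 1.30 and 0.71 log2 units. Fbln1, Fbln2 and Emilin1 were lower, with differences of -0.69, -0.47 and -0.27, and Fbln5 overlapped at 0.07 (exact permutation p = 0.629). The marker list spans log2 differences from 0.36 for Ddr2 to 3.22 for Col1a1, and the choice of markers changed this result. Without its 3 collagens, a choice made with the data in view, the marker mean differed by 0.87. Then Fbln2, Emilin1 and Fbln5 were higher, by 0.36, 0.56 and 0.90, and Fbln1 overlapped at 0.14 (exact permutation p = 0.171). Ltbp2, Mfap4, Eln, Mfap5 and Fbn1 were higher against either set of markers.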

How the data were processed

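The authors deposited a table of normalised signal, 1 value for each locus in each sample. Names in the submitters' processing notes are mm9 for the build, TopHat2 (2.0.5) and Cufflinks (2.0.2), as well as HTSeq (0.5.4p2) and DESeq; roles and settings were not given in the sources used here. All values were whole multiples of the smallest value of their library (tolerance 0.000001), so reads were rebuilt, and 1 read is worth 0.663 to 1.58 normalised reads. Counting limits cover counting error only. Loci were named by matching lengths of introns and internal exons to GENCODE M21, with no coordinate carried over; 19242 loci matched 1 gene, and the 9 members matched at 5 to 64 lengths each. Coordinates are mm9, counted from 1, from the deposited annotation.

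An intensity trend was used in limma 3.58.1 (under R 4.3.3), run on log2(value + 1) for loci averaging 10 or more, and p-values were adjusted by Benjamini-Hochberg (threshold 0.05). The fit was tested on simulated data. edgeR 4.0.16, DESeq2 1.42.0 and voom were run on rebuilt reads as alternatives. Ratios used exact 2-sided permutation tests in scipy 1.17.1. No libraries of a group were duplicates (chi-square per degree of freedom of at least 30.2). Named genes are the 9 members, the 3 called genes of each of 5 pathway lists with the largest change, the 5 loci most like the members, relatives in the family pairs, and others marked as singled out. Members and lists were chosen with earlier results of these data known. Of 49 pathway and 37 marker genes listed, 7 had no locus of their own and were not analysed here. Protein sequences were not used here.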

Additional observations from a re-analysis of the deposited data

Results flagged for a closer look

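In 216 groups of 4 libraries, 1 library lay far from the others in 10 cases, where chance gives about 1 in 20 groups. Among single genes, the library far from the rest was MI replicate 1 for Mmp12 at 4204 normalised reads (others 968 to 1503) and MI replicate 3 for Efemp1 at 737 (others 251 to 287). In Sham it was replicate 1 for Mfap2 at 309 (others 209.7 to 224) and for Nrros at 1269 (others 798 to 874), and replicate 3 for Emilin2 at 6588 (others 8511 to 8891). The summed epicardial and mesothelial markers stood at 5600 in MI replicate 3, the library in which Efemp1 was also far above the other MI libraries, and between 1097 and 1387 in MI replicates 1, 2 and 4. Whether these go together was not tested.

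Among relative measures, MI replicate 2 was low for Mfap4 against the fibroblast marker mean, at -0.64 (others -0.39 to -0.34). MI replicate 1 was low for the log2 ratio of Fbln5 to Fbln7, at 4.99 (others 5.44 to 5.50), as was Sham replicate 1 for that of Fbln5 to Emilin1, at -0.58 (others -0.13 to -0.04). Sham replicate 3 was high for the share of Ltbp2 in the summed level per 1000 bases of the 9 genes, at 0.581% (others 0.390% to 0.409%).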

How the results depend on the processing

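All 9 members were called higher and none lower in all 20 alternatives: 4 other scalings, pseudocounts of 5 and 0.5, no filter on low values or a minimum mean of 50, edgeR, DESeq2 and voom on rebuilt reads, the replicate block, and each of the 8 libraries left out. Log2 differences ran over these from 0.90 to 1.32 for Fbln1 and from 4.74 to 5.19 for Ltbp2, and the largest adjusted p of any member was 0.00293 (Fbln1). The counts over all loci moved with scaling to the library total, to 8571 higher and 1493 lower, and to the total outside chrM, to 6384 and 2141. Pathway list genes called lower, 5 with the deposited scaling, were 1 with the library total and 2 with the total outside chrM. By construction the total scalings divide by totals that differ between the groups. On rebuilt reads edgeR called 4288 loci higher and 3649 lower, and DESeq2 4331 and 4116, beside 3999 and 3855. The count of pairs of members with parted ratios, 30, ran from 30 to 33 with 1 library left out and was 30 with either pseudocount. The count relative to fibroblast markers was 8 throughout. Leaving out a library cannot make parted groups overlap, so neither count could fall in those runs, which do not test them. Replicate numbers do not pair the samples by any label, and deviations of same-numbered MI and Sham libraries correlated at 0.146, 0.272, 0.160 and -0.000918. With the replicate block 4152 loci were called higher and 4056 lower, and all 9 members higher. MI replicates 1, 2 and 3 correlated best with the Sham library of their own number, and MI replicate 4 with Sham replicate 1 (0.284). With the other transcript length, the MI shares of the 9 genes in their summed level per 1000 bases moved by more than their SD for all but Fbn1. That of Eln went from 28.9 ± 3.89% to 24.1%, and that of Fbn1 from 6.57 ± 0.913% to 7.11%. With 4 animals a group the smallest exact p is 0.0286.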
